A study of Homo sapiens with 8 samples.

Results

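The classical cadherins and the catenins that bind them form the adherens junction, and 10 of their genes were followed in H9, a widely used line of human embryonic stem cells (hESCs). The genes were taken by their symbol: the cadherins CDH1, CDH2, CDH3 and CDH11, the alpha-catenins CTNNA1 and CTNNA2, beta-catenin CTNNB1 and its close relative plakoglobin JUP, and the p120 family members CTNND1 and CTNND2. They are 10 of the 18679 genes measured in both experiments and of the 20344 measured in either. A classical cadherin is a calcium-dependent adhesion receptor that binds the same cadherin on the neighbouring cell. Its cytoplasmic tail holds p120-catenin, which keeps the receptor at the surface, and beta-catenin or plakoglobin, which in turn hold alpha-catenin, the link to actin filaments. E-cadherin (CDH1) is the main cadherin of epithelia and of undifferentiated hESCs, whereas N-cadherin (CDH2) is typical of neural and mesenchymal cells, and the balance between CDH1 and CDH2 shifts when cells pass between epithelial and mesenchymal states. Beta-catenin is also the transcriptional partner of TCF and LEF factors in WNT signalling.

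Poly-A RNA was sequenced in 2 experiments with 2 libraries in each group, and all 8 libraries came from H9 cells grown on Matrigel. In the crowding experiment, cells at low density were compared with crowded cells at high density, which could attach only to small drops of Matrigel. In the ETV4 KD experiment, cells that carry a short hairpin RNA as control (shControl) were compared with cells carrying a hairpin against the ETS factor ETV4 (shETV4). Which ETV4 hairpin was used, and whether the libraries of a group came from separate cultures, is not stated, so p-values measure only the spread between these libraries. The experiments share no libraries, and their tables were normalized separately, so levels are compared within an experiment. Each library held 50359703 to 62410168 counts on genes. ETV4 itself was at 90.8 and 95.1 FPKM in shControl and at 45.6 and 40.9 FPKM in shETV4, where FPKM is a fragment count scaled by transcript length and by the mapped fragments of the library. In the crowding experiment ETV4 was also lower in the second group, at 73.2 and 72.6 FPKM at low density and 54.2 and 53.9 FPKM at high density. Log2 fold changes (log2FC), their standard errors (SE) and adjusted p-values below are from edgeR's quasi-likelihood test on the read counts with Benjamini-Hochberg adjustment, over 17672 genes for crowding and 17879 for ETV4 KD, and a gene was taken as a DEG at an adjusted p under 0.05 and a log2FC beyond 0.5 in either direction. The median log2FC of all genes tested was 0.003 for crowding and -0.001 for ETV4 KD. In bulk RNA, fewer cells that express a gene and less of its RNA per cell cannot be told apart. The pluripotent stem cell markers, among them POU5F1 and SOX2, summed to 2563 to 3356 FPKM in the 8 libraries. In crowding 0 of these 8 markers were DEGs, where 10.7% of all genes tested were raised and 5.47% lowered DEGs. By adjusted p alone 3 were higher and 3 lower, beside 19.4% and 20.3% of all genes. The largest changes were those of NANOG (log2FC -0.46) and SOX2 (0.41). After ETV4 KD the markers TDGF1 and DNMT3B were lowered DEGs and LIN28A a raised one, beside 7.1% and 5.88% of all genes. NANOG was lower by adjusted p alone (-0.44).

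Crowding changed the cadherins unequally. CDH2 fell to 0.346 of its level, CDH1 rose by a smaller factor, and CDH3 and CDH11 did not pass the test. ETV4 KD moved CDH1 and CDH2 the opposite way, by a smaller change for CDH2 and a similar one for CDH1, and in several alternative fits neither was past the threshold. Among the catenins, JUP was lower and CTNNA2 higher in crowded hESCs, and CTNND2 was higher after ETV4 KD. The abundant partners CTNNA1, CTNNB1 and CTNND1 changed by less than the DEG threshold in both experiments.

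The bases before the start of CDH2, the member with the largest change, and of CTNND2, the only member that was a DEG after ETV4 KD, are shown as RefSeq gives them for GRCh38.p14. RefSeq entries were at hand for 6 of the 10 members (CDH2, CTNNA1, CTNNA2, CTNNB1, CTNND2 and JUP) and not for CDH1, CDH3, CDH11 and CTNND1. Each run is the 250 bases before a transcript start, 5′ to 3′ on the minus strand, without overlap with an annotated exon, and an exact match placed each at 1 site of its GRCh37 chromosome. Capitals mark the E-box CANNTG, a general form that includes the CACCTG or CAGGTG bound by SNAI and ZEB factors. The first CDH2 run precedes the start nearest to the gene's 5′ end, the second a start inside the gene.
CDH2, first start, GRCh38 chr18:28177131-28177380, GRCh37 chr18:25757095-25757344: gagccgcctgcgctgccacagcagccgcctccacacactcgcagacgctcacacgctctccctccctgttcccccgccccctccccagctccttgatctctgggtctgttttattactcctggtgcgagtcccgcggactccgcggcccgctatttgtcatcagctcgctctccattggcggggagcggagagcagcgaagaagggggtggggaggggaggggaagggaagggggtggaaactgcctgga
CDH2, inner start, GRCh38 chr18:28036642-28036891, GRCh37 chr18:25616606-25616855: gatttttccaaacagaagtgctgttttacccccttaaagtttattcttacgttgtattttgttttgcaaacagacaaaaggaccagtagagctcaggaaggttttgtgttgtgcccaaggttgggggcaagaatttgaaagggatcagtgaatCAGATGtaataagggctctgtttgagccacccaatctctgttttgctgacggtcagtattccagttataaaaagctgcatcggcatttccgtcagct
CTNND2, first start, GRCh38 chr5:11904447-11904696, GRCh37 chr5:11904559-11904808: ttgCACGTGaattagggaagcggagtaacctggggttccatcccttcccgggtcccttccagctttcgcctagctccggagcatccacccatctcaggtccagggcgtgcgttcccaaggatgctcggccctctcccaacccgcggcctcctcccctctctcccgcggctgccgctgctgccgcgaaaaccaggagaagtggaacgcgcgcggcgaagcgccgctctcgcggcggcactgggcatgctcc
The CDH2 run near the gene's 5′ end is 66% G and C with 17 CG dinucleotides and holds no CANNTG, and the inner run is 42% G and C with 4 CG dinucleotides and 1 CANNTG. The CTNND2 run is 67.2% G and C with 25 CG dinucleotides and 1 CANNTG, in the form CACGTG. Over 35116 RefSeq promoters, these 250 bases had a median of 58% G and C and 11 CG dinucleotides. CANNTG occurred on either strand, since it reads the same on both, in 61.8% of them. The SNAI and ZEB form CACCTG or CAGGTG, which is contained in CANNTG, occurred in 17.5% of all promoters, and the ETS form GGAAGT or ACTTCC in 19.5%. None of these latter forms is in the 3 runs shown, which says only that the letters are not in these windows. Of the runs not shown, a JUP run holds the SNAI and ZEB form 2 times. A CTNNA2 run and a CTNNA1 run each hold the ETS form 1 time. The run before an inner start of CTNND2, of which 149 bases overlap annotated exons, is also not shown and holds none of these forms.

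CDH2 lies on chr18:25512843-25757910 of GRCh37 on the minus strand and was measured as the sum of 2 RefSeq transcripts. It was at 18.4 and 18.2 FPKM in the low-density libraries and at 6.87 and 6.33 FPKM in the high-density libraries. Both crowded libraries were far below both low-density libraries, and replicates differed by less than 1 FPKM. The read counts behind these values were 4247 and 5065 at low density and 1729 and 1819 at high density. The log2FC was -1.53 (SE 0.07, adjusted p = 4.66e-13), and ranked 430 by size among the 17672 genes tested. No alternative ended the call, with log2FC values from -1.59 to -1.35.

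After ETV4 KD, CDH2 was at 18.4 and 18.3 FPKM in shControl and at 21.5 and 22.7 FPKM in shETV4. The shETV4 libraries were the higher pair, without overlap. The log2FC of 0.27 (SE 0.08, adjusted p = 0.0452) was close to the threshold for the adjusted p and below that for a DEG. The direction held in all alternatives (0.20 to 0.34), but 8 of 12 were not past the threshold, with adjusted p from 9.35e-04 to 0.264. These 8 include the test without a filter on low counts, the limma fits on FPKM and the fits without shControl replicate 1 (adjusted p = 0.240), without shControl replicate 2 (0.264) or without shETV4 replicate 2 (0.0929).

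CDH1, on chr16:68771195-68869440 of the plus strand, was at 48.0 and 45.9 FPKM at low density and at 64.3 and 57.3 FPKM at high density. Both crowded libraries were higher, and they also differed more from each other than the low-density pair. The log2FC was 0.32 (SE 0.06, adjusted p = 3.67e-04), 1.25-fold, below the DEG threshold in size but past the adjusted p in all 12 alternatives. In the ETV4 KD experiment CDH1 was at 47.0 and 44.2 FPKM in shControl and at 39.0 and 33.9 FPKM in shETV4. Here the hairpin libraries were the lower pair. The log2FC was -0.32 (SE 0.08, adjusted p = 0.0259), 0.801-fold. The adjusted p ranged from 1.65e-05 to 0.260 over 12 alternatives and was not past 0.05 without shControl replicate 1 (0.260), without shControl replicate 2 (0.0622) or with limma on all genes (0.0840).

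The balance of CDH1 to CDH2 was compared as the ratio of their FPKM in each library. At low density CDH1 was 2.61 and 2.52 times CDH2, and at high density 9.36 and 9.05 times. The ratio was therefore 3.59-fold higher in crowded hESCs, a difference of 1.84 on the log2 scale, where the pooled SD between replicates was 0.0353. In shControl CDH1 was 2.55 and 2.42 times CDH2, and in shETV4 1.82 and 1.49 times, a ratio of 0.663-fold or a log2 difference of -0.59 with a pooled SD of 0.147. In neither experiment did the groups overlap. An exact two-sided permutation test gave p = 0.333 for each, which is the smallest p that 2 libraries against 2 allow, so this test cannot reach 0.05.

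**Figure D1:**
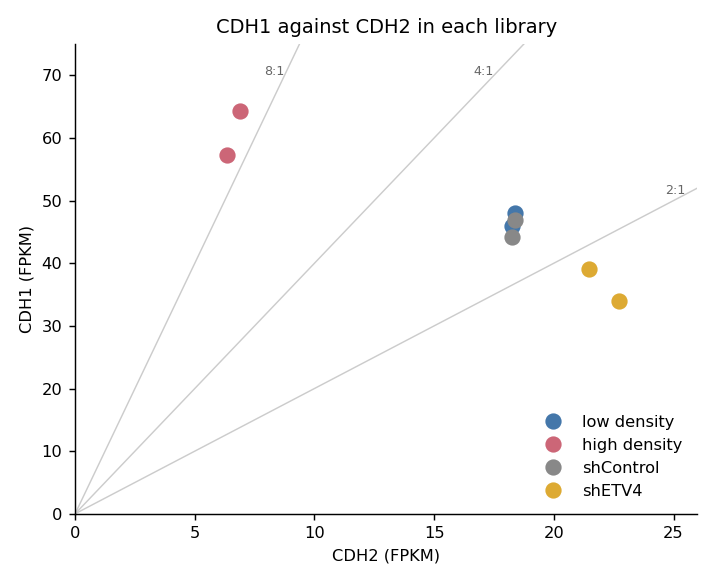
CDH1 (y axis, FPKM) against CDH2 (x axis, FPKM), 1 point per library and 1 colour per group, with grey lines at fixed ratios of CDH1 to CDH2. The 2 high-density libraries lie above the 8:1 line, the low-density and shControl libraries lie together between 2:1 and 4:1, and the 2 shETV4 libraries lie below 2:1.

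CDH3, P-cadherin, lies next to CDH1 in the same orientation, on chr16:68670092-68761371, and was close to CDH1 in abundance. Its mean was below that of CDH1 at both densities. In shControl (46.4 against 45.6 FPKM) and shETV4 (39.8 against 36.5 FPKM) it was above, with overlap of the replicates. Its level was 45.5 and 42.4 FPKM at low density and 48.0 and 50.7 FPKM at high density. These groups did not overlap, but the log2FC of 0.08 (SE 0.06, adjusted p = 0.303) was not past the threshold. After ETV4 KD it went from 48.7 and 44.0 FPKM to 41.8 and 37.8 FPKM, a log2FC of -0.21 (SE 0.07, adjusted p = 0.0649), which passed the threshold without shETV4 replicate 1 (0.0393), in a range of 0.00216 to 0.515 over 12 alternatives.

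CDH11, a cadherin of mesenchymal cells and bone on chr16:64977656-65160015 of the minus strand, was the least abundant of these cadherins. It was at 1.12 and 1.23 FPKM at low density and at 0.997 and 0.985 FPKM at high density (log2FC -0.29, SE 0.12, adjusted p = 0.0688). In shControl it was at 1.17 and 1.26 FPKM and in shETV4 at 1.03 and 0.864 FPKM (log2FC -0.35, SE 0.14, adjusted p = 0.117). In both experiments the second-named group was the lower pair without overlap, and neither difference passed the test, although that of ETV4 KD did without shETV4 replicate 1 (adjusted p = 0.0477, in a range of 0.0477 to 0.463).

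Summed over the 4 cadherins, the pool was 110 ± 3.72 FPKM in low-density cells and 118 ± 3.47 FPKM in crowded cells (SD, n = 2 each). Within it, the share of CDH2 was 16.6% ± 0.455 (SD, n = 2) at low density and 5.60% ± 0.160 (SD, n = 2) at high density, and that of CDH1 was 42.5% ± 0.0877 and 51.6% ± 2.68. CDH3 held 39.8% ± 0.647 and 42.0% ± 2.83. The pool was 111 ± 5.31 FPKM in shControl and 99.3 ± 5.63 FPKM in shETV4 (SD, n = 2 each), with CDH2 shares of 16.5% ± 0.703 and 22.3% ± 2.15 and CDH1 shares of 40.9% ± 0.189 and 36.7% ± 1.55. CDH11 held 0.842% to 1.09% on average in the 4 groups.

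**Figure D2:**
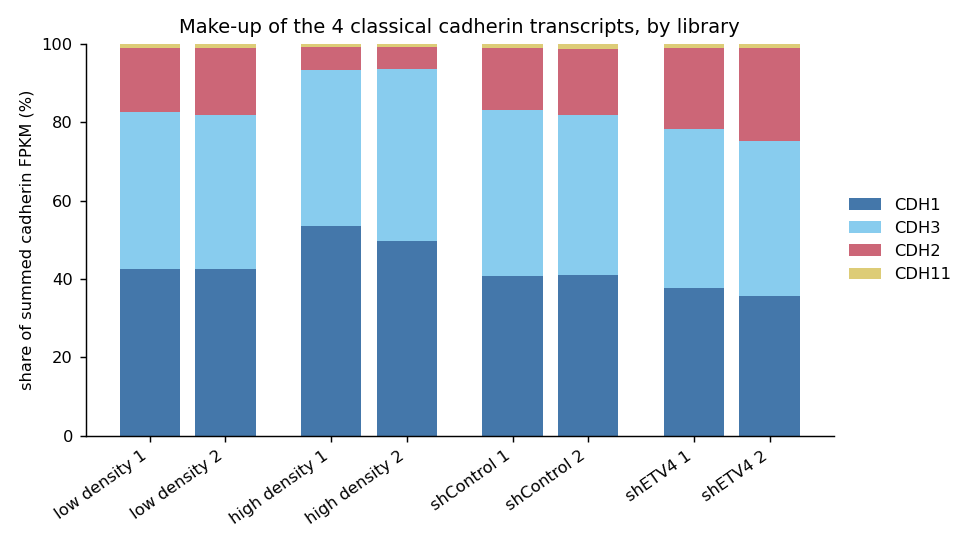
Share of each cadherin in the summed FPKM of CDH1, CDH3, CDH2 and CDH11 (y axis, percent), 1 stacked bar for each of the 8 libraries. The CDH2 segment is 5.60% on average in the high-density bars against 16.6% at low density, and 22.3% in the shETV4 bars against 16.5% in shControl.

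Among the catenins, JUP showed the largest fall in crowded hESCs. Plakoglobin is found in adherens junctions and in desmosomes, and its gene lies on chr17:39910856-39943183 of the minus strand. JUP was at 29.0 and 28.8 FPKM at low density and at 22.5 and 18.2 FPKM at high density. The crowded pair was lower, and its 2 libraries stood further apart than the low-density pair. The log2FC was -0.56 (SE 0.09, adjusted p = 3.75e-04), which made JUP a DEG. Without high density replicate 2 the log2FC was -0.40, and limma on log2(FPKM + 1) gave -0.49, so that JUP was not a DEG in either, while the adjusted p stayed below 0.05 in all 12 alternatives (1.21e-26 to 0.0337). In the ETV4 KD experiment JUP was at 24.5 and 25.2 FPKM in shControl and at 25.3 and 29.4 FPKM in shETV4, and the log2FC of 0.15 (SE 0.10, adjusted p = 0.303) was not past the threshold. It was past it without shETV4 replicate 1 (log2FC 0.28, adjusted p = 0.0155, in a range of 0.0155 to 0.944), whereas without shETV4 replicate 2 the log2FC was 0.011.

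CTNNB1, on chr3:41236232-41301587 of the plus strand, was the most abundant member in 3 of the 4 groups. At low density it was at 137 and 135 FPKM and at high density at 127 and 123 FPKM. The crowded pair was lower by a log2FC of -0.17 (SE 0.05, adjusted p = 0.00865), a fall of 11.3%. In 6 of 12 alternatives this was not past the threshold (adjusted p from 7.65e-04 to 0.110), namely the 4 limma fits on FPKM and the fits without low density replicate 1 (0.110) or 2 (0.0765). After ETV4 KD, CTNNB1 went from 100.3 and 98.9 FPKM to 120.1 and 119.9 FPKM, the opposite direction, with replicates less than 2 FPKM apart. Its log2FC was 0.29 (SE 0.07, adjusted p = 0.0217). In a range of 4.92e-05 to 0.211, the adjusted p missed 0.05 without shControl replicate 1 (0.164), without shControl replicate 2 (0.211) and with limma on all genes (0.0509). The gene overlaps ULK4 on the other strand, which was at 1.88 to 2.58 FPKM in the 8 libraries.

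The share of JUP in the sum of CTNNB1 and JUP was 17.5% ± 0.0595 (SD, n = 2) at low density and 14.0% ± 1.60 (SD, n = 2) at high density. It was 20.0% ± 0.497 in shControl and 18.5% ± 1.58 in shETV4. The sum of both was 165 ± 1.36 FPKM at low density and 145 ± 5.56 FPKM at high density, and 124 ± 0.523 FPKM in shControl and 147 ± 2.76 FPKM in shETV4.

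The alpha-catenins are a ubiquitous form, CTNNA1, and a neural form, CTNNA2. CTNNA1, on chr5:137946656-138270723 of the plus strand, was at 113 and 108 FPKM at low density and 112 and 110.0 FPKM at high density. These pairs overlapped, and the log2FC was -0.05 (SE 0.05, adjusted p = 0.463). After ETV4 KD, CTNNA1 went from 103 and 106 FPKM to 90.7 and 84.3 FPKM, lower in both libraries, with a log2FC of -0.25 (SE 0.07, adjusted p = 0.0321). The adjusted p ranged from 2.06e-04 to 0.280 and was not past 0.05 without shControl replicate 1 (0.259), without shControl replicate 2 (0.280) and with limma on all genes (0.0699).

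CTNNA2, on chr2:79412357-80875986 of the plus strand, was low throughout. It was at 1.61 and 1.77 FPKM at low density and at 2.85 and 2.79 FPKM at high density, with read counts of 377 and 493 against 718 and 801. The crowded pair was higher by a log2FC of 0.67 (SE 0.11, adjusted p = 8.02e-05), 1.59-fold, which made CTNNA2 a DEG, and this held with each library left out. LRRTM1, a gene inside CTNNA2 on the other strand, was at 0.307 to 0.316 FPKM at low density and at 0.721 to 0.786 FPKM at high density. Whether counting used the strand is not stated, so the reads of the 2 genes cannot be told apart where they overlap. In shControl CTNNA2 was at 1.42 and 1.26 FPKM and in shETV4 at 1.17 and 0.924 FPKM, a log2FC of -0.36 (SE 0.18, adjusted p = 0.180). CTNNA2 made up 1.51% ± 0.140 (SD, n = 2) of the alpha-catenin FPKM at low density and 2.48% ± 0.00462 (SD, n = 2) at high density, so CTNNA1 remained nearly the whole pool.

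CTNND1, or p120-catenin, lies on chr11:57520715-57587018 of the plus strand and binds the cadherin tail next to the membrane. It was at 53.8 and 50.4 FPKM at low density and 51.6 and 51.5 FPKM at high density, with overlap (log2FC -0.07, SE 0.05, adjusted p = 0.340). After ETV4 KD it went from 50.1 and 47.3 FPKM to 45.2 and 39.0 FPKM, lower without overlap but not past the threshold (log2FC -0.20, SE 0.08, adjusted p = 0.107). It passed without shETV4 replicate 1 (0.0152), in a range of 0.00205 to 0.588. The annotation holds 2 further protein-coding genes that overlap CTNND1, so its reads may be shared with them.

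CTNND2, delta-catenin, is the neural member of the p120 family and lies on chr5:10971948-11904558 of the minus strand. It was at 1.56 and 1.15 FPKM at low density and at 1.54 and 1.43 FPKM at high density, so the pairs overlapped (log2FC 0.09, SE 0.13, adjusted p = 0.636). In shControl it was at 1.20 and 1.32 FPKM and in shETV4 at 1.96 and 1.79 FPKM, with read counts of 421 and 450 against 700 and 617. Both hairpin libraries were higher. The log2FC was 0.61 (SE 0.13, adjusted p = 0.0165), 1.52-fold, which made CTNND2 the only DEG among the members in that experiment. Without shControl replicate 1 it was 0.52 (adjusted p = 0.153, in a range of 5.41e-04 to 0.153), and the 4 limma fits on FPKM gave 0.35 to 0.54 (adjusted p = 0.0505 to 0.0938), so the call did not hold in any of these. CTNND2 was 2.52% ± 0.263 (SD, n = 2) of the p120 family FPKM in shControl and 4.27% ± 0.158 (SD, n = 2) in shETV4.

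**Figure D3:**
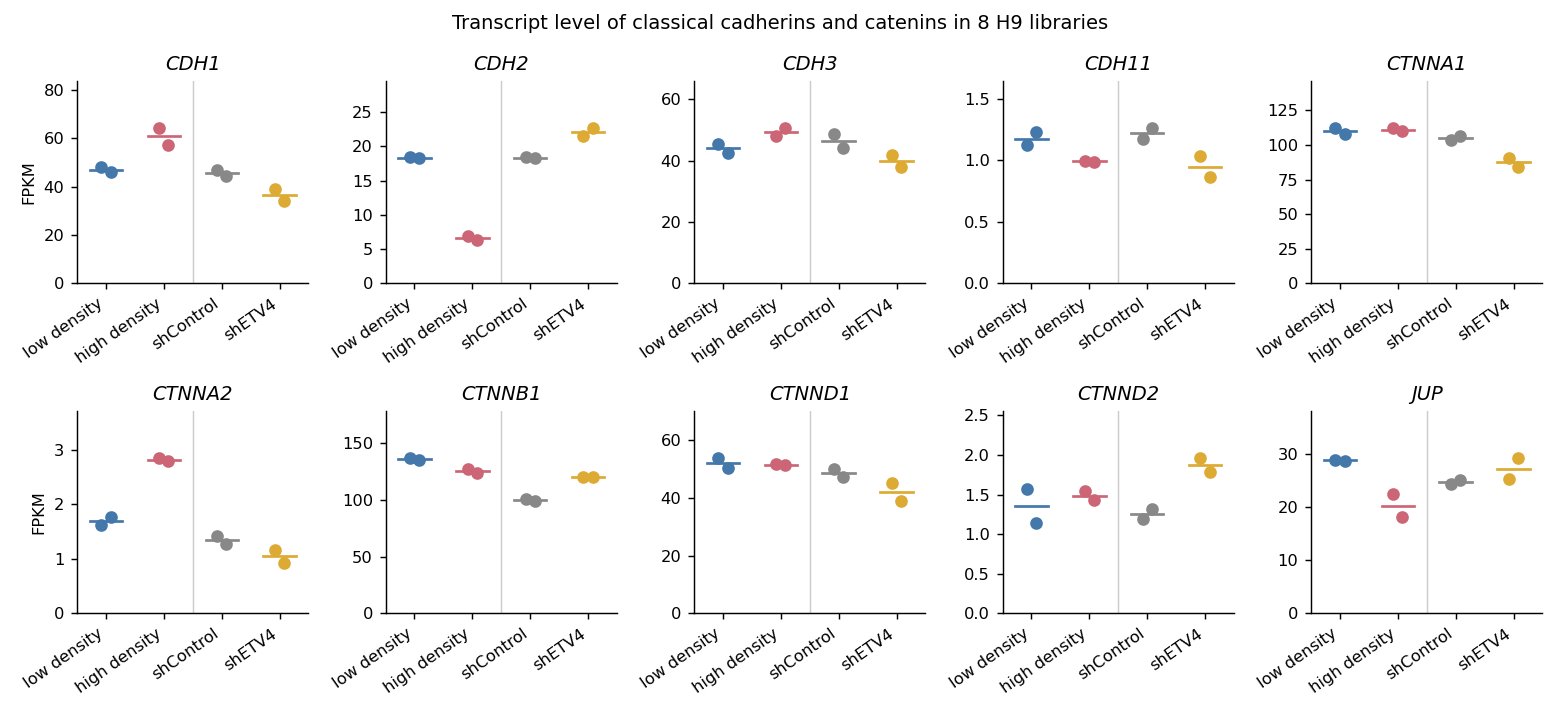
FPKM of the 10 genes (y axis, from 0, 1 panel per gene) in the 8 libraries, with 1 point per library and a line at the mean of each group. In the CDH2 panel the high-density points, 6.87 and 6.33, are far below the other 6, and in the CTNNA1 panel the low- and high-density points overlap.

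The order of the members by FPKM changed little between groups. At low density the means ran from CTNNB1 (136 FPKM) and CTNNA1 (110 FPKM) through CTNND1 (52.1), CDH1 (47.0), CDH3 (44.0), JUP (28.9) and CDH2 (18.3) to CTNNA2 (1.69), CTNND2 (1.36) and CDH11 (1.18). CTNND2 and CDH11 overlapped in their replicates, and the other neighbours did not. At high density CDH1 (60.8 FPKM) stood above CTNND1 (51.5 FPKM), and no neighbours overlapped. In shControl, CTNND1, CDH3 and CDH1 overlapped each with the next, as did CTNNA2, CTNND2 and CDH11. CTNNA1 (105 FPKM) was above CTNNB1 (99.6 FPKM) in shControl and below it in shETV4 (87.5 and 120.0 FPKM). In shETV4 the overlaps were those of CTNND1 with CDH3, CDH3 with CDH1, and CTNNA2 with CDH11.

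Counted over the 10 members, crowding raised 1 DEG (CTNNA2), where 10.7% of all genes tested were raised DEGs, and lowered 2 (CDH2 and JUP), where 5.47% of all genes were lowered DEGs. By adjusted p alone, 2 members were higher (CDH1 and CTNNA2) and 3 lower (CDH2, CTNNB1 and JUP), beside 19.4% and 20.3% of all genes. The members' median log2FC was -0.06. For ETV4 KD, 1 member was a raised DEG (CTNND2), beside 5.88% of all genes, and 0 were lowered DEGs by edgeR, beside 7.1% of all genes. DESeq2 also called 0, and 0 members had an unadjusted edgeR p under 0.05 with a log2FC below -0.5, while 5 were lower with such a p at any size. By adjusted p alone, 3 were higher (CDH2, CTNNB1 and CTNND2), where 10.6% of all genes were, and 2 lower (CDH1 and CTNNA1), where 10.9% were. The median was -0.21. With only 10 members, each count rests on a few genes and is given as a description.

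**Figure D4:**
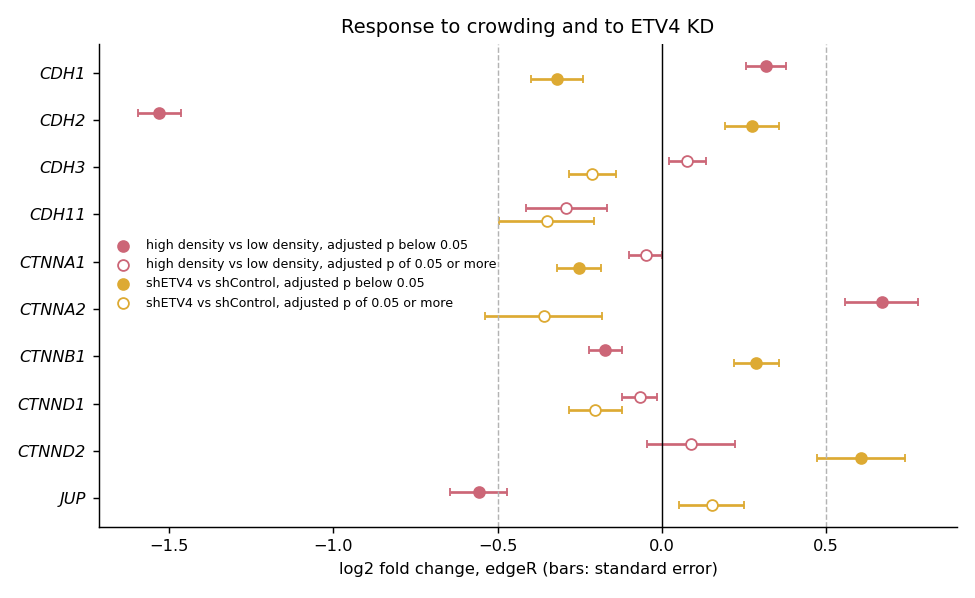
Log2FC of each member (x axis) by edgeR for crowding (red) and ETV4 KD (yellow), with bars for the SE, filled points for an adjusted p below 0.05 and dashed lines at -0.5 and 0.5. CDH2 lies at -1.53 for crowding and 0.27 for ETV4 KD, and CDH1 at 0.32 and -0.32.

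Whether the members answered crowding and ETV4 KD differently was tested as the difference of both log2FC values in 1 edgeR fit over the 8 libraries. Of all 17790 genes tested, 38.5% differed at an adjusted p below 0.05, and 6 of the 10 members did. CDH2 differed most, by -1.81 (SE 0.10, adjusted p = 5.29e-07), and CTNNA2 by 1.02 (0.19, adjusted p = 0.00149). JUP differed by -0.72, CDH1 by 0.63, CTNNB1 by -0.47 and CDH3 by 0.28, with adjusted p from 7.49e-04 to 0.0179. For CDH1, CDH2, CTNNA2, CTNNB1, CDH3 and JUP, the 2 fold changes had opposite signs, although not each of them passed its own test. CDH11 (0.05, adjusted p = 0.840), CTNNA1 (0.20, adjusted p = 0.0686), CTNND1 (0.13, adjusted p = 0.314) and CTNND2 (-0.52, adjusted p = 0.0565) did not pass. CTNNA1 passed without shETV4 replicate 1 and CTNND2 without low density replicate 2 (adjusted p = 0.0329 and 0.0224), whereas without low density replicate 1 the difference for CTNND2 was -0.31 (adjusted p = 0.288). The call for CDH3 was lost in 4 of 12 alternatives, those without low density replicate 1, low density replicate 2, high density replicate 1 or shControl replicate 1 (adjusted p 0.00378 to 0.0857 over all).

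The genes whose pattern was most like that of CDH2 and CDH1 were found by the Pearson correlation of log2 CPM (read counts scaled to library size), as deviations from each experiment's mean, over 8 libraries and 12474 genes. These libraries are 4 pairs of replicates, so the correlation mostly reflects the group differences and is given as a description. Most like CDH2 were SHISAL1 (0.999), ANXA2 (0.998), a calcium-dependent membrane-binding protein, and DAGLA (0.997), a lipase that makes an endocannabinoid, with log2FC values in crowding of -1.04, -1.35 and -1.04 and after ETV4 KD of 0.19, 0.20 and 0.23. Among the genes most like CDH1 were CAND2 (0.987) and NTF4 (0.986), a neurotrophin, with log2FC values of 0.58 and 0.53 in crowding and -0.65 and -0.55 after ETV4 KD.

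The neighbours of the members at the junction moved mostly down in crowded hESCs. Of 24 adherens junction partners, all tested, 8 were lowered DEGs and 1 was a raised DEG, and 17 were lower by adjusted p alone, where the shares of all genes were 5.47%, 10.7% and 20.3%. Over the list, the median log2FC was -0.39. This list and those below were chosen with earlier results of these data known, so their counts are a description and not a test. VCL, the actin-binding protein vinculin that binds stretched alpha-catenin, went from 152 ± 2.29 to 88.2 ± 5.11 FPKM (SD, n = 2; log2FC -0.85, adjusted p = 4.97e-11). ZYX, the LIM protein zyxin of actin attachments, went from 100.5 ± 2.60 to 54.8 ± 5.38 FPKM (SD, n = 2; -0.93, adjusted p = 2.62e-09). KIFC3, a motor that runs to microtubule minus ends at junctions, changed by -1.38, and PTPRM, a receptor phosphatase that binds itself between cells, by -0.82. The other lowered DEGs were AJUBA, PDLIM7, LIMA1 and NECTIN3, and the raised one was PLEKHA7.

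After ETV4 KD, 4 partners were raised DEGs and 1 was a lowered DEG, beside 5.88% and 7.1% of all genes, with a median of 0.12. AJUBA, a LIM protein of junctions, went from 8.19 ± 0.0693 to 16.8 ± 3.33 FPKM (SD, n = 2; log2FC 1.09, adjusted p = 0.00247), and in crowded hESCs it changed the other way, by -0.79. RAP1A, a small GTPase of cadherin adhesion, rose by 0.65, PDLIM7, which binds actin, by 0.59, and SHROOM3, a regulator of apical constriction, fell by 0.65 on the log2 scale. VASP was the other raised DEG.

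Of 14 genes known as targets of beta-catenin, 12 were tested for crowding, and 7 were raised DEGs, beside 10.7% of all genes. None was a lowered DEG (0 by edgeR, by DESeq2 and at an unadjusted edgeR p under 0.05 with the same fold), and 1 was lower by adjusted p alone. The median log2FC was 0.69. This list too was chosen with earlier results of these data known, so the counts are a description. AXIN2, the negative feedback regulator of the pathway, went from 7.11 ± 0.438 to 16.7 ± 1.17 FPKM (SD, n = 2; log2FC 1.18, adjusted p = 6.67e-11), NKD2 changed by 1.09 and the factor TCF7 by 0.51, and the other 4, NKD1, RNF43, NOTUM and LEF1, were below 1 FPKM in both groups. The transcript of CTNNB1 itself was lower in the same libraries, as given above. After ETV4 KD 11 were tested with a median of -0.25, and AXIN2 was the 1 raised DEG, beside 5.88% of all genes. It went from 5.08 ± 0.00886 to 7.90 ± 0.0677 FPKM (SD, n = 2; log2FC 0.65, adjusted p = 0.00311). The genes of beta-catenin degradation and TCF factors, which share AXIN2, TCF7 and LEF1 with the targets, had a median of 0.07 in crowding with 4 raised DEGs of 18 (AXIN2, TCF7, LEF1 and APC2), and -0.0014 after ETV4 KD with 1 raised DEG of 17, AXIN2.

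The DEG counts of the next lists stand beside the shares of all genes tested. These were 10.7% raised and 5.47% lowered in crowding, and 5.88% raised and 7.1% lowered after ETV4 KD. Among desmosome genes, PKP2, a plaque protein that binds plakoglobin's partner desmoplakin, was a lowered DEG in crowding (-0.63), where 8 were tested with a median of -0.24. PKP1, below 1 FPKM, was a lowered DEG of 9 tested after ETV4 KD. Of 6 other catenins and plaque proteins, 0 were DEGs in crowding by edgeR, by DESeq2 and at an unadjusted edgeR p under 0.05 with the same fold. After ETV4 KD, PKP4, a p120 relative, fell by 0.64 and CTNNBIP1, an inhibitor of beta-catenin's binding to TCF factors, by 0.61 on the log2 scale. The other classical and atypical cadherins summed to 7.04 to 11.3 FPKM in the 8 libraries, with 3 DEGs of 9 tested in crowding (CDH8 and CDH22 higher, CDH13 lower) and 1 of 10 after ETV4 KD (CDH5, lower), each below 1 FPKM in both groups. CDH5 had a mean of 12.5 reads, and DESeq2 did not call it. In the list of regulators of cadherin genes, the 2 DEGs in crowding, SNAI2 and ZEB1, repressors of CDH1, were lower and below 1 FPKM (0.273 and 0.0635 FPKM at low density), and DESeq2 called neither. By adjusted p alone, 4 of the 17 tested were higher and 3 lower, beside 19.4% and 20.3% of all genes. KLF8 was among the higher ones (log2FC 0.37, adjusted p = 0.0034). SNAI1, at 3.61 FPKM at low density, was not past the threshold (0.09, adjusted p = 0.632). After ETV4 KD, KLF4, an activator of epithelial genes, went from 1.01 ± 0.205 to 2.31 ± 0.474 FPKM (SD, n = 2; log2FC 1.21, adjusted p = 0.00977), 1 of 2 raised DEGs of 18, the other being GRHL3 below 1 FPKM. Of 18 cadherin processing genes, 0 were DEGs in crowding by edgeR, by DESeq2 and at an unadjusted edgeR p under 0.05 with the same fold. After ETV4 KD, the sheddase ADAM9 went from 6.96 ± 0.419 to 16.0 ± 0.659 FPKM (SD, n = 2; 1.20, adjusted p = 2.54e-04), and PCSK5, a proprotein convertase, changed by -0.70. In these lists, genes below 1 FPKM, those beyond 4 per list and those that are not DEGs are named after their values were seen.

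**Figure D5:**
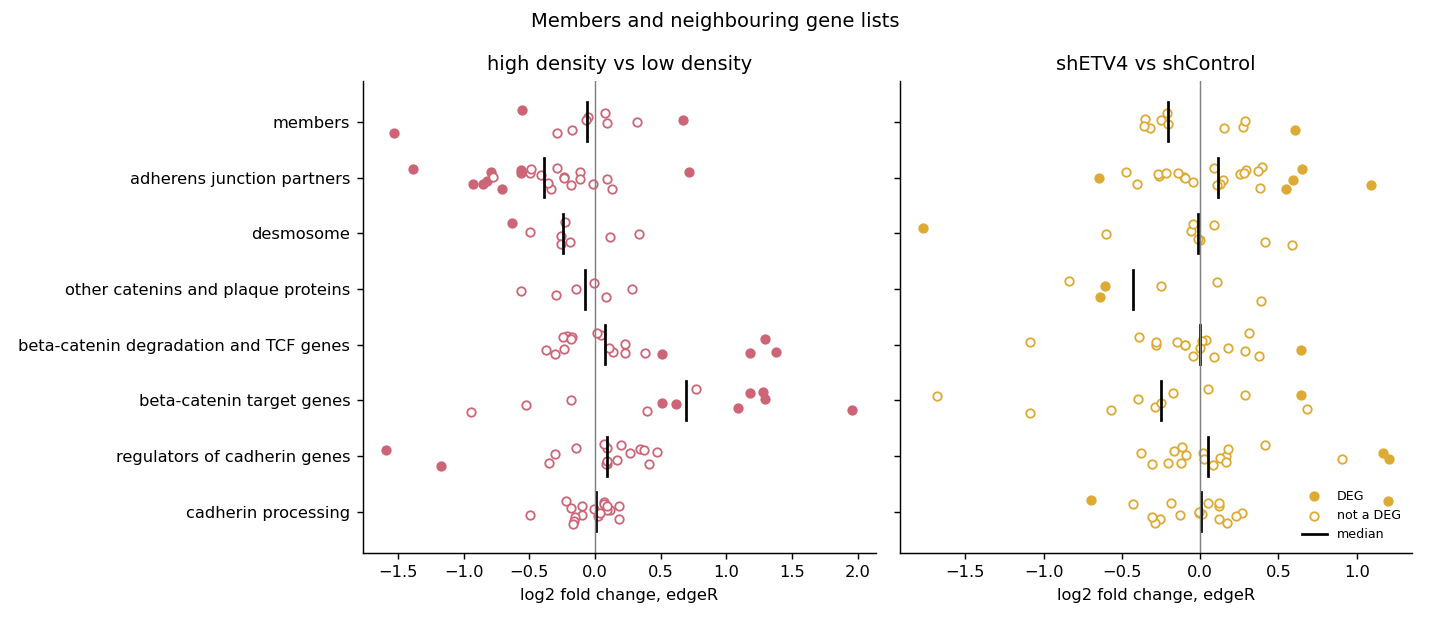
Log2FC (x axis) of each tested gene of 8 lists, for crowding on the left and ETV4 KD on the right, with filled points for DEGs and a black line at each list's median. In crowding the adherens junction partners have a median of -0.39 and the beta-catenin target genes one of 0.69.

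Markers of other cell types were followed as well, and some of them changed. Mesenchymal cells also express CDH2 and CDH11, but CDH2 is not confined to them. The authors cite a report that N-cadherin marks hESCs at the periphery of colonies. Of 6 mesenchyme markers, 3 were measured in crowding (COL1A1, COL1A2 and PDGFRB). Their summed level was 38.2 to 38.9 FPKM at low density and 30.8 to 31.0 FPKM at high density. By log2FC, PDGFRB changed by -1.58 and COL1A1 by -0.44, and COL1A2 was at 0.02 (adjusted p = 0.846). After ETV4 KD the sum of 4 such markers went from 37.01 to 39.07 FPKM in shControl to 53.1 to 57.4 FPKM in shETV4, a rise in COL1A1 alone (log2FC 1.00), since COL1A2 (-0.50) and PDGFRB (-0.54) fell. The 4 neuroectoderm markers summed to 76.8 to 78.3 FPKM at low density and 53.1 to 56.9 FPKM at high density. This sum is nearly all NES (log2FC -0.55), with PAX6 and SOX1 below 0.1 FPKM in both groups. SOX1 went the other way (log2FC 2.27) and LHX2 was lower (-1.55), at mean counts of 11.25 and 12 reads. Both were DEGs by edgeR, while DESeq2 called 0 raised and 1 lowered DEG in this list. In the ETV4 KD experiment 3 of them summed to 44.0 to 49.4 FPKM in shControl and 58.2 to 63.7 FPKM in shETV4. Mesendoderm markers summed to at most 1.19 FPKM and those of trophectoderm and surface ectoderm to at most 0.166 FPKM in any library. Of the endothelium markers, KDR made up nearly all of 23.7 to 24.7 FPKM at low density, 31.2 to 35.7 FPKM at high density, 29.0 to 30.4 FPKM in shControl and 14.4 to 20.9 FPKM in shETV4. The endothelium marker CDH5 was at a mean of 0.0867 FPKM in shControl and 0.0145 FPKM in shETV4. Whether cells of these types were present, and any part of them in the changes of CDH2 and the other members, was not tested.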

How the data were processed

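The authors made 8 poly-A libraries from H9 hESCs with a stranded kit. The submitters' processing notes name Trimmomatic, HISAT2 2.1.0, StringTie 2.1.3b and GRCh37. The authors deposited a table per experiment with unnormalized read counts per gene and with FPKM values, normalized by transcript length and mapped reads. Each listed gene has at least 1 read in each library, and whether counting used the strand is not stated. The authors' fold changes, means and p-values, and 16 further columns of per-sample values, were not used.

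Groups came from the sample labels. R 4.3.3 and edgeR 4.0.16 were used for the tests on counts (filterByExpr, TMM and a robust quasi-likelihood fit), each experiment separately, and for the difference between experiments in 1 fit over the 8 libraries. The SE is the size of the log2 fold change over the root of its F value. Tests were tried on simulated counts. Alternatives were the Wald test of DESeq2 1.42.0, its size factors in edgeR, no filter on low counts, limma 3.58.1 on log2 FPKM with pseudocounts of 0.1, 0.5 and 1 above a mean FPKM of 0.5 or for all genes, a replicate block, a threshold of 1 on the log2 fold change, and each library left out. The depth of 50359703 or more counts per library keeps counting error small for the abundant members, where the spread between 2 libraries limits the precision. Counting error weighs more for CTNNA2, CTNND2 and CDH11 and for the listed genes below 1 FPKM. Positions are those of GENCODE lifted to GRCh37. The members and gene lists were chosen with earlier results of these data known. Of the lists, those DEGs were named that reached a mean FPKM of 1 in either group, at most 4 per list and experiment by absolute log2 fold change. The protein sequences planned for the cadherin tails were not analysed here. 1 gene with a pattern like that of CDH1 is not reported here.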

Additional observations from a re-analysis of the deposited data

Results flagged for a closer look

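The responses to crowding and to ETV4 KD of 6 members differed by edgeR's interaction test over the 8 libraries at an adjusted p below 0.05, and each is given as the log2 fold change for crowding minus that for ETV4 KD. CDH2 differed by -1.81 (standard error 0.10, adjusted p = 5.29e-07). CTNNA2 differed by 1.02 (standard error 0.19, adjusted p = 0.00149) and JUP by -0.72 (standard error 0.15, adjusted p = 0.00250). CDH1 differed by 0.63 (standard error 0.11, adjusted p = 7.49e-04), CTNNB1 by -0.47 (standard error 0.08, adjusted p = 7.64e-04) and CDH3 by 0.28 (standard error 0.08, adjusted p = 0.0179). Of all genes tested, 38.5% differed in this test.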

How the results depend on the processing

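The number of members that were DEGs in crowding, 3, went to 1 with a threshold of 1 on the log2 fold change. For ETV4 KD the 1 DEG became 0 with that threshold, without shControl replicate 1 (0 to 1 with single libraries left out), and with limma on log2 FPKM at pseudocounts of 0.5, 0.1 and 1 and on all genes (0 in each). The log2 difference in the ratio of CDH1 to CDH2 with crowding went from 1.84 to 1.77 with 0.5 added to each FPKM. CTNNA1 changed sign in crowding with limma on FPKM, to 0.00901 with 0.5 added (also on all genes), 0.00904 with 0.1 and 0.00897 with 1. CTNND2 changed sign in crowding to -0.10 without low density replicate 2 (-0.10 to 0.30 with single libraries left out). The difference between experiments for CDH11 changed sign to -0.0038 without low density replicate 1 and to -0.039 without shETV4 replicate 2 (-0.039 to 0.15 with single libraries left out). None of these changes of sign was past the threshold in either fit, and their cause was not tested.

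Samples of different groups share only a replicate number. The deviations of same-numbered samples correlated at -0.0416 for crowding and 0.0856 for ETV4 KD. With the replicate block, 3 and 1 members were DEGs as before, and the CDH1 to CDH2 differences were 1.84 and -0.59. CDH3 and CTNND1 passed the adjusted p for ETV4 KD with the block (0.00216 and 0.00205). In the blocked fit 8 instead of 6 members differed between the experiments, CTNNA1 and CTNND2 being added. The share of all genes that differed in that fit is not given here, so the rise cannot be set beside it. Over all alternatives, 326 of the single-gene values kept their direction and side of the thresholds, 37 were weaker and 10 stronger. With 1 library left in a group, that library is assumed to vary like the others. CTNNA2, CTNND2 and CDH11 rest on 217 to 801 reads per library, fewer than any other member.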
